A study of Mus musculus with 6 samples.

Results

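Scavenger receptors are cell-surface or endosomal proteins of phagocytes that bind modified lipoproteins, dying cells, microbes and protein aggregates. The 8 genes described here were taken by symbol: Msr1, Marco and Colec12 (collagen-containing receptors), Cd36 and Scarb1 (the CD36 family), Olr1 (a C-type lectin-like receptor), Cd68 (a macrosialin of late endosomes and lysosomes) and Cd5l (a secreted protein with scavenger receptor cysteine-rich domains). All 8 symbols were found among 41079 gene rows. RNA was sequenced from primary microglia of neonatal C57Bl/6N mice aged 1 to 3 days, with 3 control and 3 optimized libraries. All cells came from mixed glial flasks that were fed with 20% L-929 conditioned medium and then shaken to release microglia. By the study's methods, tissue digestion and flask culture used serum-containing medium, and flasks were shaken weeks after isolation. Each flask held several pooled brains. Both conditions were then kept in serum-free medium, and optimized cells also received human TGFbeta, human IL34 and CX3CL1, each at 100 ng/mL. According to the methods of the study, the optimized conditions also included a collagen IV coating, cholesterol and an insulin, transferrin and selenium supplement, so the contribution of a single component cannot be told apart. Cells of both conditions also met serum briefly while they attached after shaking.

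In the brain, microglia use scavenger receptors to take up myelin debris, lipoproteins and aggregated amyloid. Ligand is delivered to lysosomes, where lipids are hydrolysed and then stored or exported, and several of the receptor genes are known targets of lipid-sensing nuclear receptors in macrophages. CD36 passes fatty acids and oxidized lipoproteins inward, while SR-BI, encoded by Scarb1, exchanges cholesterol with high-density lipoprotein.

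The libraries held 20628148 to 27261839 counted fragments. No libraries were identical, but optimized replicate 1 stood apart from the other two optimized libraries. The chi-square per degree of freedom was 78.4 and 46.2 for its pairs, against 14.5 for optimized replicates 2 and 3 and 10.7 to 25.8 among controls. Microglial markers were present in every library, with a summed level over 8 matched genes of 7977 to 8606 CPM (counts scaled to library depth) in controls and 12441 to 15940 CPM under the optimized conditions. Of these 8, 5 rose, 2 fell (Csf1r and Aif1) and 1 did not pass the test. The markers of border macrophages and monocytes summed to 932 to 1034 CPM in controls and 474 to 628 CPM under the optimized conditions. Among these 9 genes, 5 were tested, of which Mrc1 and Ms4a7 fell, F13a1 and Pf4 rose and Ccr2 was not called. Lyve1, Cd163 and Ly6c2 had at most 11 counts in a library. Plac8 had 54 counts in optimized replicate 1 and at most 1 in any other library. The part of border macrophages and monocytes in the results below was not tested. Summed levels for astrocytes were 27.1 to 30.0 against 18.3 to 20.8 CPM, for oligodendrocytes 128 to 143 against 160 to 192 CPM, and for neurons 3.07 to 4.63 against 5.30 to 6.29 CPM. Of the 5 astrocyte genes only Aldh1l1 was called, from 16.5 to 4.64 mean CPM, while the means of Gfap (4.18 and 4.68 CPM) and Gja1 (5.64 and 7.94 CPM) went the other way without passing the test. Of the 6 oligodendrocyte genes only Mbp was called, higher at 119 against 94.2 mean CPM, and it made up most of that sum. Of the 4 tested neuron genes only Nefl was called, higher at 1.14 against 0.227 mean CPM. Fibroblast markers overlapped, at 31.8 to 45.7 against 28.6 to 147 CPM, with optimized replicate 3 highest. Endothelial markers reached 78.8 to 94.7 against 271 to 349 CPM, nearly all from Flt1, while Cldn5 had at most 2 counts in a library. In bulk RNA, fewer cells of a type and less RNA per cell cannot be told apart.

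All 8 scavenger receptor genes differed between the conditions. Olr1, Colec12, Cd68 and Scarb1 rose, and Marco, Cd36, Msr1 and Cd5l fell, at an adjusted p under 0.05 (edgeR quasi-likelihood test, Benjamini-Hochberg adjustment). All 8 were still called in the same direction without optimized replicate 1. The genes called higher numbered 2 without control replicate 1 or 2 and 3 without any 1 of the other 3 libraries, and the genes called lower numbered 3 without control replicate 2 or 3. Of the genes tested in each fit, 35.1% were called without optimized replicate 1 and 21.8% to 29.2% when a different library was left out. Such calls were common in the transcriptome, since 29.8% of the 14618 tested genes were called, 14.7% as higher and 15.2% as lower. Among the 9240 genes with at least the mean CPM of Olr1, the lowest of the 8 over all libraries, 34.0% were called. The median log2 fold change of the 8 genes was -0.08, beside 0.01 over all tested genes. No library of one condition overlapped the other for any of the 8, on the CPM or the FPKM scale (fragments of a gene scaled by its length and by library depth, which allows comparison between genes). The conditions were likewise separated for 43.9% of all tested genes in CPM, for 46.9% in FPKM and for 36.8% on both scales. Unless another setting is named, log2 fold changes below are edgeR estimates from counts scaled between libraries by TMM. The TMM factors were 1.00 to 1.07 in controls and 0.898 to 1.03 under the optimized conditions. FPKM carry no such scaling, so ratios of FPKM means differ from these estimates.

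**Figure D1:**
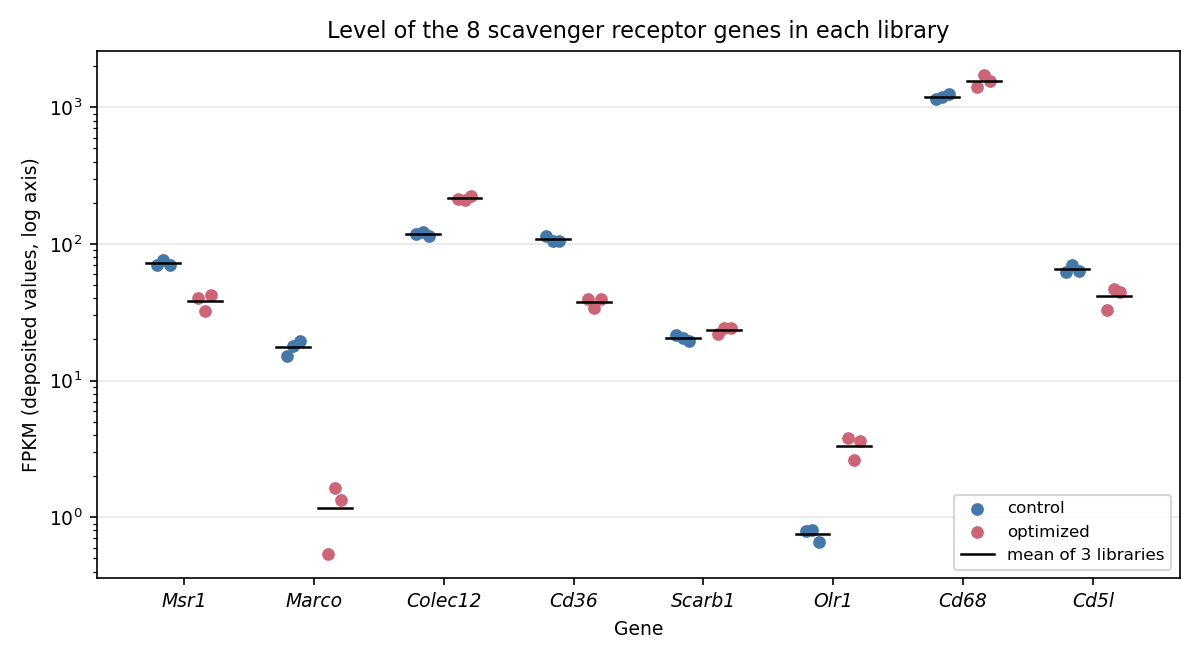
FPKM of the 8 genes on a log axis in 3 control and 3 optimized libraries, with a line at the mean of each condition. Every gene shows 2 separated groups of points, as did 46.9% of all tested genes in FPKM, and the levels run from 0.540 for Marco in an optimized library to 1731 for Cd68.

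Msr1, which encodes the class A receptor for acetylated lipoproteins and amyloid fibrils, lies on chr8:40034726-40095714 (GRCm39, minus strand). Its FPKM was 70.2, 76.4 and 70.1 in the controls and 40.0, 32.3 and 42.5 in the optimized libraries. All 3 optimized libraries were below all 3 controls. The mean fell from 72.2 ± 3.59 to 38.3 ± 5.32 FPKM (SD over 3 libraries each). The log2 fold change in TMM-scaled counts was -0.78 (SE 0.10, edgeR adjusted p = 0.00025).

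Marco, the collagenous receptor best known from alveolar and marginal-zone macrophages, showed the largest change of the 8 genes. It lies on chr1:120402267-120432753 (GRCm39, minus strand). Counts were 646, 814 and 1050 in the controls and 23, 84 and 57 in the optimized libraries. The mean fell from 17.5 ± 2.15 to 1.17 ± 0.566 FPKM (SD over 3 libraries each). The log2 fold change in TMM-scaled counts was -3.74 (SE 0.29, edgeR adjusted p = 8.8e-06), a 13.3-fold lower level on that scale. The optimized libraries varied among themselves, with a coefficient of variation of 51.2% in CPM, and optimized replicate 1 was lowest. Without that library the log2 fold change was -3.39, and without optimized replicate 2 it was -4.13. Only 32 of the 14618 tested genes had a lower log2 fold change.

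Colec12, a collectin with a class A-type collagen stem that binds sugars and oxidized lipoprotein, moved opposite to the other collagen-containing receptors. The gene is on mouse chromosome 18. Its FPKM was 119, 122 and 114 in the controls and 213, 210 and 226 in the optimized libraries. These were tight groups with a wide gap between them. The mean rose from 118 ± 4.26 to 216 ± 8.46 FPKM (SD over 3 libraries each). The log2 fold change in TMM-scaled counts was 1.01 (SE 0.09, edgeR adjusted p = 1.4e-05), and with 1 library left out it stayed between 0.99 and 1.05.

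Cd36, the fatty acid and oxidized lipoprotein receptor, lies on chr5:17986432-18094067 (GRCm39, minus strand). Its FPKM was 113, 106 and 104 in the controls and 39.6, 34.2 and 39.6 in the optimized libraries. The lowest control was well above the highest optimized library. The mean fell from 108 ± 4.84 to 37.8 ± 3.11 FPKM (SD over 3 libraries each). The log2 fold change in TMM-scaled counts was -1.38 (SE 0.08, edgeR adjusted p = 1.6e-06).

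Scarb1, its relative, lies on the same chromosome at chr5:125353547-125418176 (GRCm39, minus strand) and changed least of the 8. Its FPKM was 21.6, 20.4 and 19.5 in the controls and 21.9, 24.5 and 24.3 in the optimized libraries. The highest control and the lowest optimized library were close. The log2 fold change was 0.34 (SE 0.09, edgeR adjusted p = 0.0185), and the call was lost in 9 of 15 alternative settings, among them scaling by library size alone (0.21, adjusted p = 0.095). It was also lost without any 1 of the controls (adjusted p = 0.052, 0.090 and 0.072) or without optimized replicate 2 or 3 (adjusted p = 0.057 and 0.068). The direction was kept in all 15.

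Olr1, which encodes LOX-1, a receptor for oxidized low-density lipoprotein best known from endothelium, rose from a low level. It lies on chr6:129462207-129484128 (GRCm39, minus strand). Counts were 70, 76 and 74 in the controls and 335, 280 and 318 in the optimized libraries. The mean rose from 0.754 ± 0.0812 to 3.34 ± 0.626 FPKM (SD over 3 libraries each). The log2 fold change in TMM-scaled counts was 2.28 (SE 0.16, edgeR adjusted p = 3.9e-06), a 4.86-fold higher level on that scale. Even so, Olr1 remained far below Colec12 in FPKM. On the log2(FPKM + 1) scale, which understates changes of low genes, limma gave 1.30. Among endothelial markers Flt1 also rose (log2 fold change 1.85, SE 0.12, edgeR adjusted p = 2.8e-06), whereas Pecam1 and Cdh5 were under 2 CPM on average in both conditions.

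The promoters of Marco and Olr1, the most changed gene in each direction, are shown from 250 bases before to 50 bases after the annotated start, on the gene's strand (minus), with motif matches on either strand in capitals. They span chr1:120432704-120433003 and chr6:129484079-129484378 (GRCm39).
Marco: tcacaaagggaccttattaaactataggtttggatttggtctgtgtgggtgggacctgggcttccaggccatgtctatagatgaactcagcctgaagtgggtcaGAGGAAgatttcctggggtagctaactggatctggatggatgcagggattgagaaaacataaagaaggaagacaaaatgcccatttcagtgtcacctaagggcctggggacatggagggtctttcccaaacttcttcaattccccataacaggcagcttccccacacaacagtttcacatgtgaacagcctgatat
Olr1: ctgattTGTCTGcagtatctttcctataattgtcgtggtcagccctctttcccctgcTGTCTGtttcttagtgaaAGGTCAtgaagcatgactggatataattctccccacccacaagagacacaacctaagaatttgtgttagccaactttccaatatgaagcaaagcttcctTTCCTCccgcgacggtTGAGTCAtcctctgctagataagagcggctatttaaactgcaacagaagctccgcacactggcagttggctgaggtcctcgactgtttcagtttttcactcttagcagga
The letters searched were TGANTCA (AP-1), GAGGAA (PU.1), CAGACA (SMAD), TGCTGA (MAF site) and AGGTCA (nuclear receptor site), and no matches overlapped in these windows. The Marco window held 1 match, PU.1 letters at base -146. The Olr1 window held AP-1 letters at -60, PU.1 letters at -76, SMAD letters at -244 and -193 and nuclear receptor letters at -175. Among 13952 promoters of the same length, these motifs occurred in 5.71% (AP-1), 27.5% (PU.1), 17.0% (SMAD), 15.8% (MAF site) and 13.4% (nuclear receptor site). A match is a description of letters and not of binding.

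Cd68, the lysosomal macrosialin used as a phagocyte marker, had the highest level of the 8 genes in both conditions. It lies on chr11:69555037-69557067 (GRCm39, minus strand). Its FPKM was 1153, 1189 and 1246 in the controls and 1406, 1731 and 1563 in the optimized libraries, with no overlap. The log2 fold change was 0.53 (SE 0.13, edgeR adjusted p = 0.0101), lost in 4 of 15 alternative settings, among them those without control replicate 1 (adjusted p = 0.056) or 2 (adjusted p = 0.062). Of its LAMP family relatives, which coat lysosomal membranes, Lamp2 rose with a log2 fold change of 0.26 (SE 0.09, edgeR adjusted p = 0.047), and Lamp1 had 0.18 (adjusted p = 0.35). The call for Lamp2 was lost under library size alone (0.13) and whenever a library other than optimized replicate 1 was left out. Lamp3 and Lamp5 had at most 2 counts in a library.

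Cd5l, a secreted macrophage protein that binds lipids and limits macrophage cell death, lies on chr3:87265182-87278380 (GRCm39, plus strand). Its FPKM was 62.1, 70.6 and 63.3 in the controls and 33.1, 46.6 and 44.6 in the optimized libraries, with optimized replicate 1 lowest. The log2 fold change was -0.51 (SE 0.14, edgeR adjusted p = 0.0212). It was -0.35 (adjusted p = 0.0042) without optimized replicate 1. Leaving out control replicate 2 or 3 ended the call (adjusted p = 0.094 and 0.057).

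**Figure D2:**
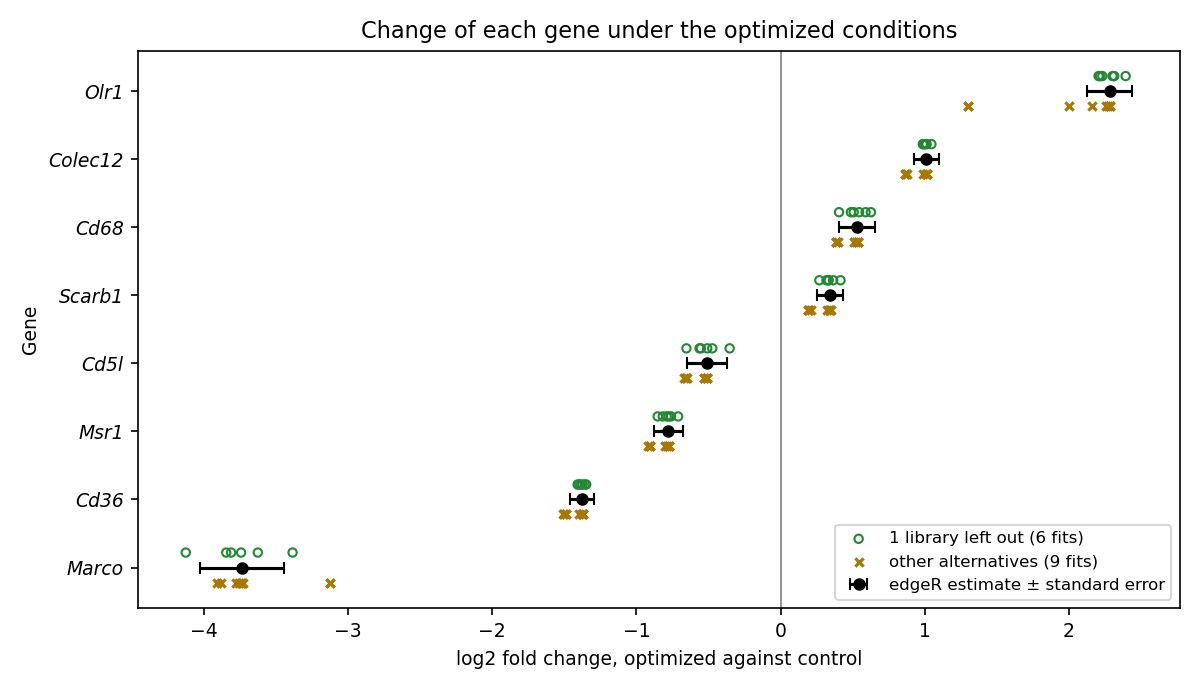
log2 fold change of each gene, optimized against control, with the edgeR estimate and its standard error in black, 6 fits with 1 library left out as circles and 9 other alternatives as crosses. No point crosses 0, and the widest spread belongs to Marco and Olr1.

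The order of levels changed with the condition. In control libraries the order in FPKM was Cd68, Colec12, Cd36, Msr1, Cd5l, Scarb1, Marco and Olr1, and of all neighbours only Msr1 and Cd5l overlapped. Under the optimized conditions it was Cd68, Colec12, Cd5l, Msr1, Cd36, Scarb1, Olr1 and Marco, where Cd5l overlapped Msr1 and Msr1 overlapped Cd36. The summed FPKM of the 8 genes was 1599 ± 41.4 in controls and 1929 ± 164 under the optimized conditions. Cd68 made up 74.8% and 81.1% of it. Without Cd68, the sum of the other 7 was 402.6 ± 11.5 and 362 ± 17.3 FPKM (SD, n = 3 each), and Colec12 held 29.4 ± 0.280% of it in controls and 59.8 ± 0.656% under the optimized conditions. The share of Cd36 went from 26.8% to 10.5%, that of Msr1 from 17.9% to 10.6%, and that of Marco from 4.36% to 0.323%. Shares do not depend on library scaling, but the sums do, and FPKM carry no TMM scaling.

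**Figure D3:**
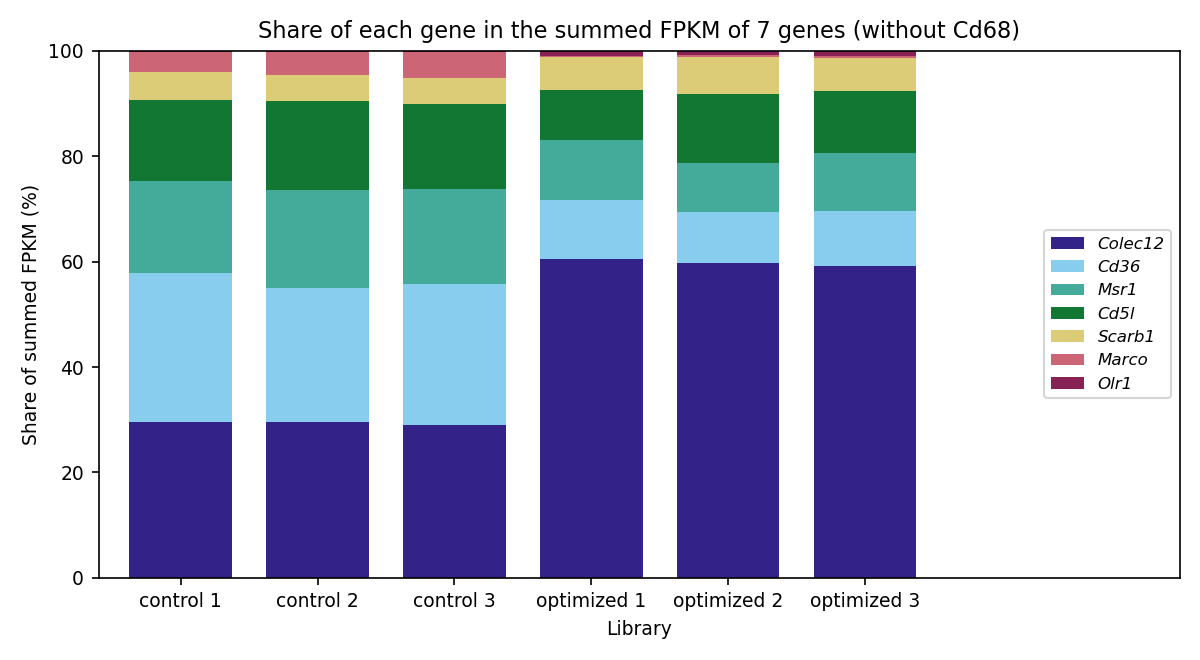
Share of 7 genes, without Cd68, in their summed FPKM (stacked bars, percent) in each of the 6 libraries. Colec12 takes 29.1 to 29.6% in the control bars and 59.2 to 60.5% in the optimized bars.

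Ratios within a library do not depend on how libraries were scaled. The ratio of Cd36 to Scarb1 was 5.26 ± 0.0759 in controls and 1.61 ± 0.206 under the optimized conditions, in FPKM. Msr1 to Colec12 went from 0.610 ± 0.0190 to 0.177 ± 0.0199, and Marco to Msr1 from 0.243 ± 0.0312 to 0.0319 ± 0.0185 (SD, n = 3 each). Cd68 also rose relative to Lamp1, from 1.17 ± 0.0267 to 1.49 ± 0.0850. Relative to Lamp2 it went from 11.4 ± 0.644 to 13.7 ± 1.76, and the highest control (12.08) nearly met the lowest optimized library (12.10). The conditions did not overlap for any of the 7 ratios computed, and each had p = 0.1 by exact permutation (two-sided), which no 3 against 3 design can go below. Where the genes of a pair moved in opposite directions, as for Cd36 to Scarb1 and Msr1 to Colec12, this separation follows from the gene values above. It is therefore no further support for those changes.

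**Figure D4:**
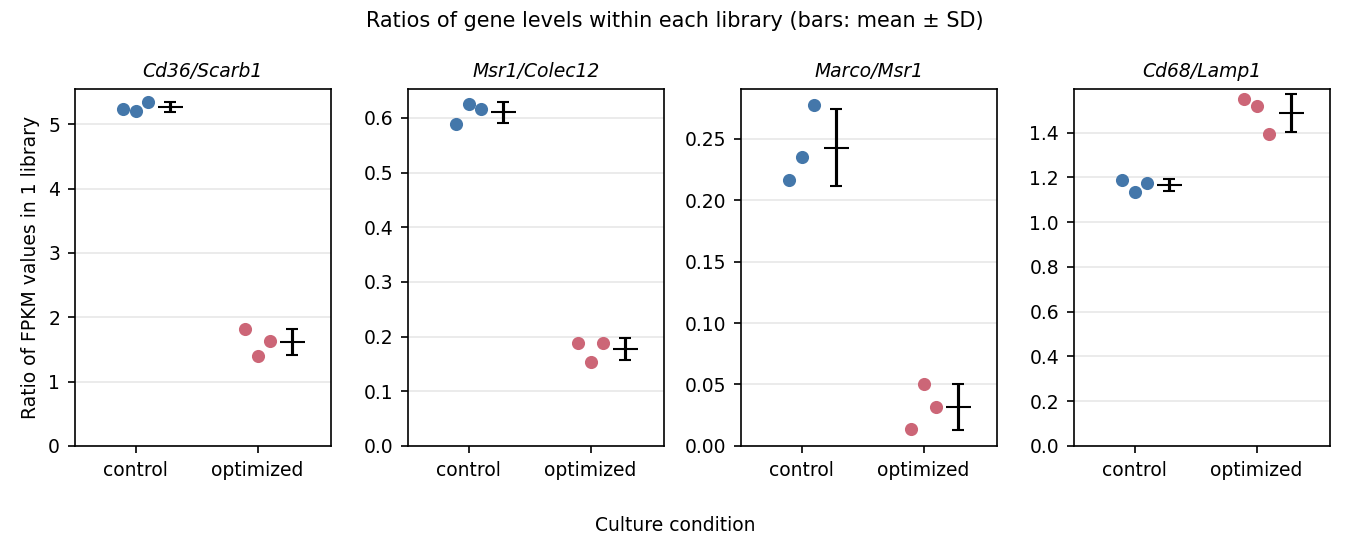
Ratios of FPKM values within 1 library for 4 gene pairs, with points for libraries and bars for mean ± SD of 3. Control and optimized points are separated in every panel, upward for Cd68 to Lamp1 and downward for the others.

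For each gene, the tested gene with the most similar pattern was found by the root mean square difference of centred log2(CPM + 0.5) over the 6 libraries. The nearest gene was Rbbp8 for Msr1 (0.031), Nfkb2 for Cd36 (0.050), Mir6381 for Marco (0.249) and Ctnnb1 for Colec12 (0.036). It was Gm17586 for Scarb1 (0.024), Fbxw4 for Cd68 (0.047), Slco5a1 for Olr1 (0.081) and Nsmce1 for Cd5l (0.037). The added 0.5 shrinks differences of low genes, such as Slco5a1 (0.445 mean CPM in controls) and Mir6381 (0.698 mean CPM under the optimized conditions). None of the 8 had another of the 8 as its nearest gene, which was likely in advance with so few of them among 14617 genes compared. The nearest of the other members ranked from 307 (Cd36 for Marco) to 3012 (Msr1 for Cd5l).

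Of 17 other scavenger receptor genes, 12 were tested, with 2 higher, 5 lower and 5 not called, and a median log2 fold change of -0.15. Scarb2, the lysosomal member of the CD36 family, rose from 51.7 to 136 mean FPKM (log2 fold change 1.53, edgeR adjusted p = 9.3e-07). Lrp1, a large endocytic receptor, was the other gene called higher (0.67, adjusted p = 0.039), although its libraries overlapped and the call was lost under library size alone (0.56, adjusted p = 0.124) and without control replicate 2 or 3 or optimized replicate 3, which left 1 gene called higher. The mannose receptor gene Mrc1 fell from 63.1 to 10.9 mean FPKM (-2.40, adjusted p = 1.7e-07), and Clec7a, encoding the beta-glucan receptor dectin-1, from 538 to 227 (-1.11, adjusted p = 2.1e-05). Stab2, a hyaluronan receptor, fell from 0.501 to 0.0534 mean FPKM (-3.07, adjusted p = 1.1e-05). Scarf1, a receptor for apoptotic cells, and Cd44, a hyaluronan receptor, fell with log2 fold changes of -0.99 and -0.54 (adjusted p = 0.017 and 0.00087). The call for Scarf1 was lost without control replicate 1 (-0.84, adjusted p = 0.081) or optimized replicate 3 (-0.84, adjusted p = 0.066). Mrc1 is also in the border macrophage list.

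Among 14 genes of lipid handling after uptake, 2 rose, 4 fell and 8 were not called, with a median log2 fold change of -0.09. The fatty acid binding protein gene Fabp4 fell from 105 to 18.6 mean FPKM (log2 fold change -2.35, edgeR adjusted p = 8e-06), and Lpl, encoding lipoprotein lipase, fell by 1.55 on the log2 scale. Lipa, the lysosomal acid lipase gene, fell by 0.74 on the same scale. Apoe, the main apolipoprotein gene of the brain, rose (0.73, adjusted p = 0.022), as did Npc1, a lysosomal cholesterol exporter (0.53, adjusted p = 0.00076). The call for Apoe was lost without control replicate 1 or 2 or optimized replicate 3, which left 1 gene called higher, and 4 were called higher without optimized replicate 1.

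Of 11 regulators known to act on scavenger receptor genes, 1 rose, 6 fell and 4 were not called, with a median log2 fold change of -0.38. Pparg, a lipid-sensing nuclear receptor and known activator of Cd36, fell from 3.93 to 0.377 mean FPKM (log2 fold change -3.22, edgeR adjusted p = 1.3e-06). Maf fell from 78.2 to 18.3 mean FPKM (-1.95, adjusted p = 4.3e-07), and Nfe2l2, the oxidative stress factor, from 87.0 to 40.2 (-0.97, adjusted p = 1.2e-05). Nr1h3, encoding the oxysterol receptor LXR alpha, had a log2 fold change of -1.92 but shares exon bases with Acp2 on the other strand, so its counts are uncertain.

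Among 11 partners and signalling genes, 3 rose, 4 fell and 4 were not called, with a median log2 fold change of -0.19. The tetraspanin genes Cd9 and Cd81, whose products organize membrane receptors, rose from 357 to 906 and from 146 to 309 mean FPKM (log2 fold changes 1.49 and 1.22, edgeR adjusted p = 1.5e-05 and 4e-05). Tlr4 and Tlr6, toll-like receptors that signal together with CD36, fell by 0.88 and 0.74 on the log2 scale. Syk, a kinase downstream of phagocytic receptors, fell by 0.82 on the same scale.

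**Figure D5:**
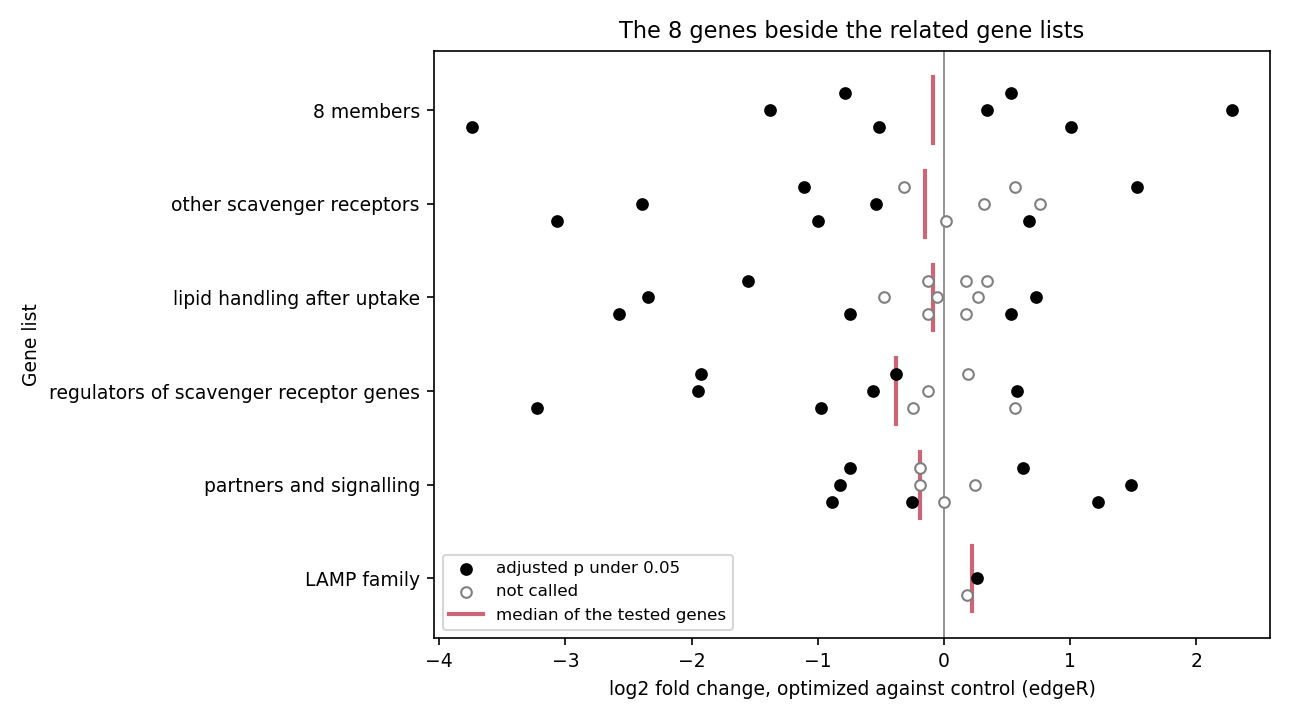
log2 fold changes (optimized against control, edgeR) of the 8 genes and of the tested genes of 5 related lists, filled where the adjusted p was under 0.05, with a red line at the median. The regulators have the lowest median, -0.38, and the 8 genes spread from -3.74 to 2.28.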

How the data were processed

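RNA-seq was measured in 3 control and 3 optimized microglia libraries. Per the labels and methods, the authors used HISAT2 for alignment (mm39) and featureCounts for counting, with versions, annotation and strand setting not given in the sources used here. The deposited tables hold raw counts and FPKM per gene symbol. Over 9963 genes with at least 100 counts, deposited FPKM equalled the count over a gene and a library constant, with no deviation on the log2 scale at 6 decimals. Counts were filtered (filterByExpr), scaled (TMM) and tested with edgeR 4.0.16 in R 4.3.3 (quasi-likelihood, Benjamini-Hochberg over 14618 genes, threshold 0.05), and the steps were tested on simulated data. SE is the log2 fold change over the root of F. The study calls its replicates biological, but the labels do not tie libraries to separate animals or cultures, so p-values measure spread between these libraries. The common coefficient of variation was 0.128.

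The 8 genes and all lists were chosen with earlier results of these data known. Named were the 8 genes, up to 5 called genes per list by size of log2 fold change, and each nearest gene. Some list genes that the rule names are not reported here. Lrp1, Cd44, Npc1, Lamp1, Flt1, Pecam1, Cdh5, Aldh1l1, Gfap and Gja1 were added after their values were seen. Alternatives were DESeq2 1.42.0, limma 3.58.1 on log2(FPKM + 1) or log2(FPKM + 0.1) or with mean FPKM of at least 1, other scaling, other count filters, a replicate block, and leaving out each library. Gene positions came from GENCODE on GRCm39, matched by symbol. Promoters were read from that genome. For Marco and Olr1, a short stretch of the RefSeq promoter of GRCm38.p6 was found at the same place in the window. The whole windows were not compared.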

Additional observations from a re-analysis of the deposited data

How the results depend on the processing

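Of 120 alternative fold changes of the 8 genes, 105 kept direction and call, 15 lost the call and 0 reversed. Scarb1 (0.34) lost its call under library size alone (0.21) and in limma with a pseudocount of 1 (0.19), of 0.1 (0.20) or a mean FPKM of at least 1 (0.19), and ranged from 0.27 to 0.42 with 1 library left out. Cd68 lost its call in limma with either pseudocount (0.38 each), and ranged from 0.41 to 0.63 with 1 library left out. Cd5l ranged from -0.65 to -0.35. The 8 genes called higher numbered 2 in limma with either pseudocount and 2 to 4 with 1 library left out. Of all genes tested, 32.4% and 32.5% were called in those limma fits, and 21.8% to 35.1% with 1 library left out. The other scavenger receptors called higher numbered 1 under library size alone and in the 3 limma fits, and 1 to 2 with 1 library left out. The lipid genes called higher numbered 1 in the 3 limma fits and 1 to 4 with 1 library left out. The LAMP genes called higher numbered 0 under library size alone, with no filter and in the 3 limma fits, and 0 to 2 with 1 library left out. Over all genes 2142 were called higher, against 1176 in limma with a mean FPKM of at least 1. Library size alone moved the median of all genes to -0.12 and the share of calls that were higher from 49.1% to 32.3%. The cause of these changes was not tested.

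Of 741 alternatives for the list genes, chosen after seeing the data, 655 kept direction and call, 32 lost and 33 gained a call, and 21 reversed, all in 5 genes that were not called. Stab1 (0.02) became -0.10 under library size alone, -0.00071 with no filter, -0.12 in each limma fit, and -0.0080, -0.057 and -0.069 without control replicates 2 and 3 and optimized replicate 1 (range with 1 library left out -0.069 to 0.12). Fyn (0.00073) became -0.13 under library size alone, -0.020 with no filter, -0.00080 with the replicate block, -0.11, -0.14 and -0.11 in limma with a pseudocount of 1, of 0.1 and a mean FPKM of at least 1, and -0.019, -0.021, -0.060 and -0.0028 without control replicates 2 and 3 and optimized replicates 2 and 3 (range -0.060 to 0.055). With 1 library left out, Ager ranged from -0.017 (without optimized replicate 1) to 0.77, Lrp2 from -0.12 (without optimized replicate 1) to 0.91 and Vldlr from -0.014 (without control replicate 2) to 0.33.

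Same-numbered libraries deviated together with correlations of 0.273, -0.0123 and 0.184, so the numbers were not taken as pairs, and not every library correlated best with its own number. With the replicate block, all 8 genes kept their calls (Cd5l -0.53, edgeR adjusted p = 0.0019), and 33.7% of genes were called. Stab2, Pparg and Marco had as few as 9, 20 and 23 counts in a library, which limits the precision of their fold changes.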
